A study of Homo sapiens with 36 samples.

Results

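Initiation factor eIF3 is a multi-subunit complex, and the mRNAs of 10 of its subunits were followed here. They are EIF3A, EIF3B, EIF3D, EIF3E, EIF3F, EIF3G, EIF3H, EIF3I, EIF3K and EIF3L, taken by symbol, 10 of 15891 genes in the table. All 10 had reads in every one of the 36 libraries, as did every gene that the table lists. Other subunits were not analysed here. The cells were HCT116, a line from a human colorectal carcinoma, treated with 10 µM 5-fluorouracil (5-FU) for 48 h. 5-FU is a pyrimidine analogue that blocks thymidylate synthesis and is built into RNA and DNA. Cells were collected on D1 and D2 of the drug course, on D7, D14 and D16, and on D0 before the drug. From each collection 2 RNA fractions were sequenced. The heavy pool held mRNA bound by more than 3 ribosomes, taken from a sucrose gradient of the cytosolic extract, and the cytoplasm stands for the cytoplasmic RNA of the same days. There were 12 groups of 3 libraries, with replicate letters A, B and C, and all collections had a short emetine treatment before harvest. Letters mark batches, per the labels, which do not say whether they are separate cultures, so the p-values measure the spread between these libraries, which may be technical. No untreated culture from a later day is among the samples, so the drug and time in culture cannot be told apart, and the sources used here do not describe handling between D14 and D16. In such bulk RNA, fewer cells carrying a transcript and less transcript per cell cannot be told apart either.

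eIF3 binds the small ribosomal subunit, helps to recruit the initiator tRNA complex and the mRNA, and keeps the large subunit from joining early. In mammals its subunits form an octameric core, which includes EIF3A, EIF3E, EIF3F, EIF3H, EIF3K and EIF3L, and a mobile module of EIF3B, EIF3G and EIF3I that sits near the mRNA channel. EIF3D is held at the edge of the core through EIF3E and can bind the cap of some mRNAs. Several eIF3 mRNAs, like those of ribosomal proteins and elongation factors, have been described as TOP mRNAs, which start with a C followed by an unbroken pyrimidine stretch and whose translation is governed by mTOR.

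The start sites are shown because a pyrimidine start is the feature that defines a TOP mRNA. RefSeq's GRCh38.p14 promoter table gave a window for EIF3B, EIF3D, EIF3F, EIF3I and EIF3K. Each line shows the 10 bases before the annotated start and the first 20 bases of the transcript, 5′ to 3′ on the gene's strand. Capitals mark an unbroken run of C and T that begins at the annotated start. The windows lie at chr7:2354817-2354846 on the plus strand for EIF3B, chr22:36529147-36529176 on the minus strand for EIF3D, chr11:7987327-7987356 on the plus strand for EIF3F, chr1:32222397-32222426 on the plus strand for EIF3I and chr19:38619178-38619207 on the plus strand for EIF3K.
EIF3D: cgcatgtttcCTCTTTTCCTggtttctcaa
EIF3F: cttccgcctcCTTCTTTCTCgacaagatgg
EIF3K: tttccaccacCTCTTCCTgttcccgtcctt
EIF3B: tcgcacgcacatggctgggctgtagccgtc
EIF3I: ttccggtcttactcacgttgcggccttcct
The motif searched was C followed by at least 4 letters C or T, from the annotated start on the gene's strand only. EIF3D, EIF3F and EIF3K hold it, with runs of 10, 10 and 8 pyrimidines, and EIF3B and EIF3I do not. It stood at 4.07% of the 35116 starts of the whole table (1429), at 5.22% of those of the 14724 entries for listed protein-coding genes (769), and at 19 of 28 starts of small ribosomal subunit protein genes. A match is a description of the annotated start and no evidence of where these cells begin transcription. EIF3A, EIF3E, EIF3G, EIF3H and EIF3L have no window here.

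The 10 genes lie on 7 of the human autosomes. In GENCODE 29 (GRCh38) EIF3A spans chr10:119033670-119080823, EIF3B chr7:2354086-2380745, EIF3D chr22:36510850-36529436, EIF3E chr8:108201216-108435333, EIF3F chr11:7970251-8001862, EIF3G chr19:10115017-10119918, EIF3H chr8:116642130-116766925, EIF3I chr1:32221928-32231604, EIF3K chr19:38619082-38636955 and EIF3L chr22:37848868-37889407. Read totals were 46.1 to 55.7 megareads in heavy pool libraries (median 51.7) and 41.0 to 103.6 megareads in cytoplasmic ones (median 48.0). Of the 7 epithelial markers checked, 6 were listed, with KRT8 (a keratin) between 115286 and 484136 normalised counts, and 3 of 12 markers of other lineages were, of which COL1A1 (a collagen chain) reached 865 and PTPRC (the leukocyte antigen) was not listed. A library's scatter around its group was larger in the cytoplasm, where the SD of the log2 deviation over all genes was 0.238 to 0.663, than in the heavy pool, where it was 0.164 to 0.254. A change of a given size was therefore easier to call in the heavy pool than in the cytoplasm, and counts of calls in the fractions are not comparable.

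Values are the authors' normalised counts, gene reads divided by 1 size factor per library. Levels of different genes were compared only after division by the coding length of the gene's longest principal coding transcript. At D0 the highest level per kb of coding length in the heavy pool was that of EIF3I, a WD-repeat subunit of the mobile module, with 37138 ± 3182 normalised counts per kb (SD, n = 3). EIF3B, the module's scaffold, followed with 23899 ± 2094, and EIF3A, the largest subunit, was lowest with 4111 ± 632. In the cytoplasm at D0 EIF3I was again highest, with 26815 ± 931 normalised counts per kb (SD, n = 3), EIF3H and EIF3E came next with 23844 ± 4064 and 22862 ± 4102, and EIF3L and EIF3A closed the order with 7795 ± 410 and 4945 ± 719. Not all neighbours in these orders were separated: the ranges of EIF3I, EIF3H, EIF3E and EIF3K overlapped from one to the next in the cytoplasm, as did those of EIF3D and EIF3B, and in the heavy pool those of EIF3K, EIF3G and EIF3D, and those of EIF3H, EIF3E and EIF3F. The order depends on the length used. Per kb of all annotated exons EIF3I stayed highest in both fractions, with 20991 ± 1799 in the heavy pool and 15156 ± 526 in the cytoplasm, but EIF3F, whose annotated exons are long beside its coding length, was lowest, with 1579 ± 123 in the heavy pool and 1405 ± 71.6 in the cytoplasm.

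**Figure D1:**
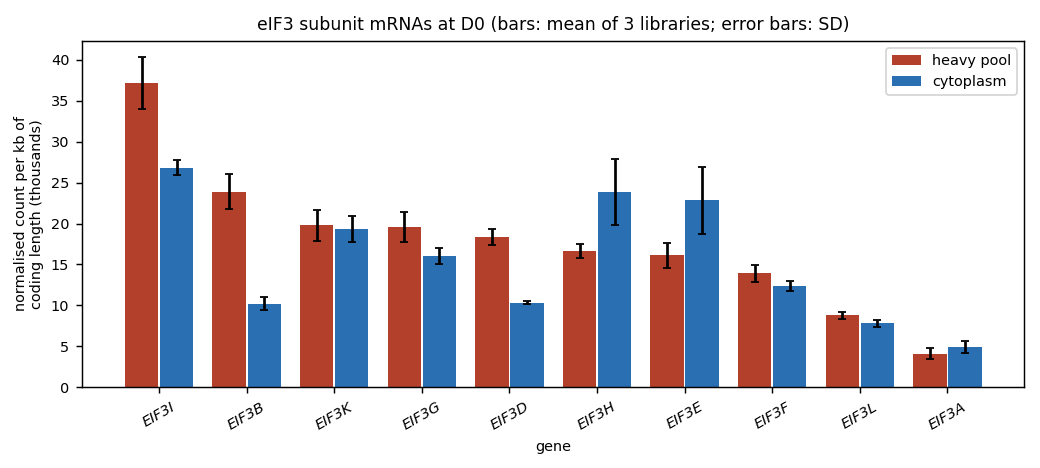
Normalised counts per kb of coding length at D0 for the 10 eIF3 subunit mRNAs (x axis, ordered by heavy pool level); bars are means of 3 libraries and error bars the SD, heavy pool in red and cytoplasm in blue. EIF3I is highest and EIF3A lowest in both fractions, and EIF3B has the widest gap between the fractions, with 23899 per kb in the heavy pool and 10192 in the cytoplasm.

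Before the drug EIF3B, EIF3D and EIF3I were higher in the heavy pool than in the cytoplasm. In the heavy pool against the cytoplasm at D0, 3 of 10 members were higher and 0 lower, where 26.7% of all 15891 genes tested were higher and 19.1% lower (limma, Benjamini-Hochberg over all genes, adjusted p under 0.05). EIF3B had 53965, 57149 and 63973 normalised counts in the heavy pool at D0, against 23637, 23884 and 27142 in the cytoplasm. All heavy pool libraries lay above all cytoplasmic ones, a log2 difference of 1.23 ± 0.16 (SE, n = 3 each, adjusted p = 5.98e-07). EIF3D was higher by 0.83 ± 0.14 (adjusted p = 3.83e-05) and EIF3I by 0.47 ± 0.14 (adjusted p = 0.00808; 0.106 and 0.103 without letters B and C). EIF3H and EIF3E had the lowest values, with log2 differences of -0.50 ± 0.25 (adjusted p = 0.105) and -0.49 ± 0.36 (adjusted p = 0.271). For both, no heavy pool library reached the level of a cytoplasmic one, but the test was not passed with all 36 libraries. Both were called lower in the heavy pool when cytoplasmic D7 A, D14 B and D16 B were left out together (adjusted p = 0.00791 for EIF3H and 0.019 for EIF3E). None of these is a D0 library, so leaving them out changed the pooled spread and not the D0 differences. Calls among all 15891 genes then numbered 8950, against 7280 with all libraries. These 3 libraries had the largest scatter around their groups, with an SD over all genes of 0.663, 0.501 and 0.485. Cytoplasmic D2 A followed at 0.484, so no gap in this measure sets the 3 apart.

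On every later day the 10 mRNAs took a smaller mean share of the reads than at D0 in both fractions, but not in every cytoplasmic letter. Together the 10 mRNAs took 0.426 ± 0.024%, 0.407 ± 0.014%, 0.442 ± 0.019%, 0.416 ± 0.009% and 0.403 ± 0.014% of the heavy pool's reads on D1, D2, D7, D14 and D16 (SD, n = 3), against 0.473 ± 0.020% at D0. Their share of the cytoplasm's reads was 0.336 ± 0.017%, 0.316 ± 0.040%, 0.375 ± 0.033%, 0.374 ± 0.050% and 0.387 ± 0.052% on these days, against 0.391 ± 0.016% at D0. In cytoplasmic letters A and C it was 0.413% and 0.392% on D14 and 0.421% and 0.413% on D16, above the 0.383% and 0.382% at D0. Letter B alone lay below D0 on these 2 days, at 0.318% and 0.327%, against 0.410%. In the F test for a change on any day, 10 of 10 passed in the heavy pool, but so did 95.1% of all 15852 genes tested there, so that count says little about eIF3. By day, the members that fell against D0 in the heavy pool numbered 5 of 10 on D1, 10 of 10 on D2, 6 of 10 on D7, 8 of 10 on D14 and 7 of 10 on D16. Of all genes tested, 26.9% fell on D1, 34.5% on D2, 36.5% on D7, 37.6% on D14 and 36.6% on D16. Members that rose numbered 0 on D1, D2 and D7 and 2 on each of the last 2 days. Of all genes, 20.1%, 30.4%, 27.0%, 34.4% and 36.2% rose in the same order of days. The members' median log2 difference was -0.35, -0.57, -0.47, -0.39 and -0.68 over these 5 days, beside -0.06, -0.03, -0.11, -0.02 and 0.02 for all genes. All 5 days were set against the same D0 libraries, so these are not independent results.

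The size of the changes in the heavy pool, and several calls, depend on the scaling. Under total-sum scaling the median of all genes in the heavy pool moved up to 0.13, 0.35, 0.18, 0.30 and 0.44 over the 5 days, and the share of higher genes among all calls to 67.9%, 71.7%, 64.5%, 65.0% and 70.7%, where the authors' size factors gave 42.7%, 46.8%, 42.5%, 47.8% and 49.7%. Members called lower then numbered 5, 5, 4, 4 and 6 of 10 on D1, D2, D7, D14 and D16, and members called higher 1, 0, 2, 2 and 3, where of all genes 14.7%, 19.5%, 22.2%, 25% and 22% fell and 31%, 49.3%, 40.5%, 46.5% and 53.2% rose. EIF3A was called higher on D1 (0.45, adjusted p = 0.0144) and D16 (0.33, adjusted p = 0.0429), EIF3H on D7 (0.38, adjusted p = 0.00072), D14 and D16, EIF3K on D7 (0.23, adjusted p = 0.018) and EIF3E on D14 and D16. On D2 EIF3H, EIF3I and EIF3K had values above 0 that did not pass. The members' median minus the median of all genes was -0.28, -0.54, -0.36, -0.37 and -0.71 over the 5 days, and 9, 10, 7, 8 and 8 of the 10 members lay below that median. A library's scaling factor moves all genes alike, so it cannot change these distances beyond the pseudocount and rounding.

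**Figure D2:**
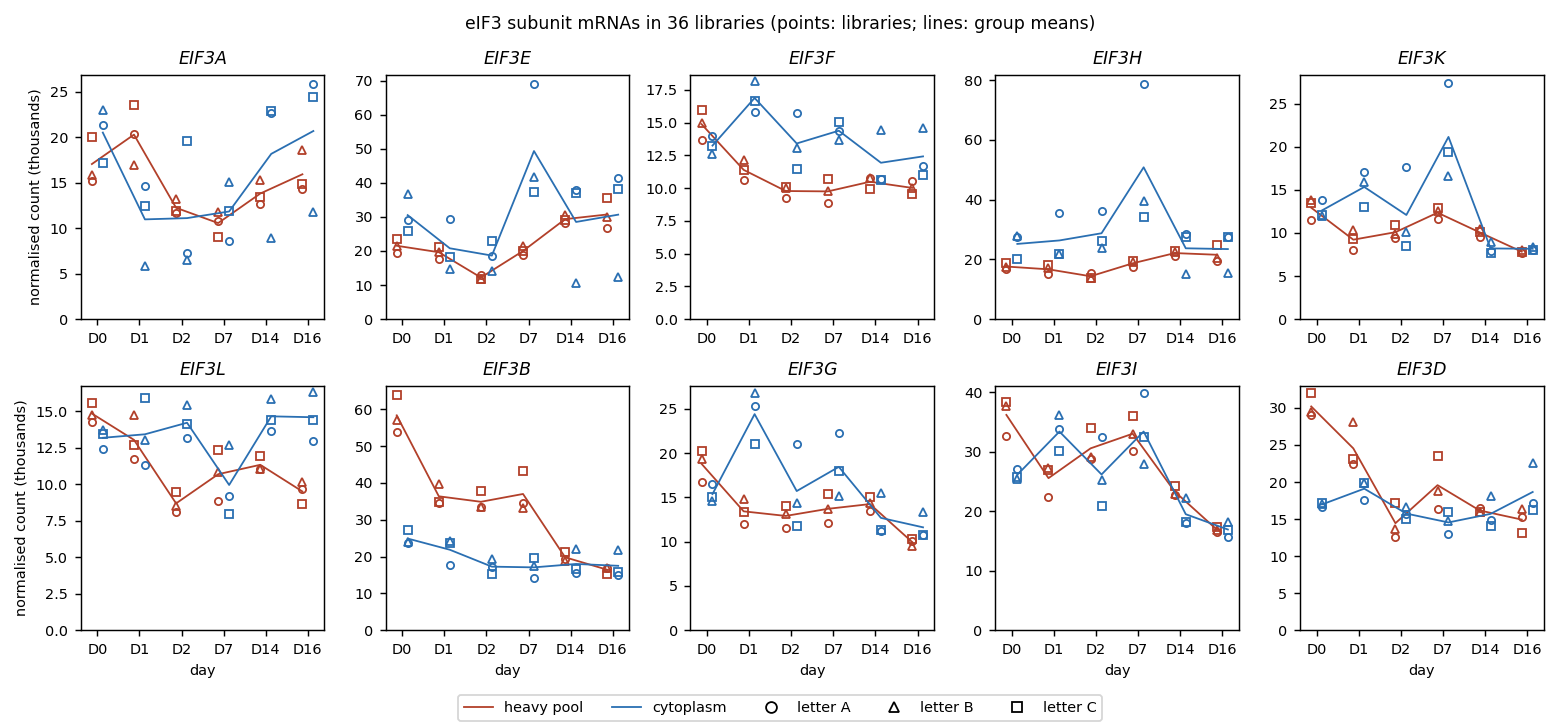
Normalised counts (linear axis from 0) of the 10 eIF3 subunit mRNAs by day; points are the 36 libraries (circle, triangle and square for letters A, B and C), lines join group means, heavy pool in red and cytoplasm in blue. The heavy pool points lie close together on each day, while cytoplasmic EIF3A, EIF3E and EIF3H spread widely, with EIF3H at 78625 in cytoplasmic D7 A.

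EIF3B, which carries an RNA recognition motif and holds EIF3G and EIF3I, showed the largest fall of the 10. It had 19394, 18800 and 21180 normalised counts in heavy pool D14 and 16896, 17012 and 15332 in heavy pool D16, against 53965, 57149 and 63973 at D0. On D1, D2 and D7 its 9 heavy pool values lay between 33239 and 43145, below all D0 values and above all values of D14 and D16. Its log2 differences were -0.68, -0.74 and -0.66 on D1, D2 and D7 (SE 0.10, adjusted p from 1.1e-06 to 1.01e-05), then -1.56 ± 0.10 on D14 (adjusted p = 1.02e-11) and -1.83 ± 0.10 on D16 (adjusted p = 5.27e-13), or 2.95-fold and 3.55-fold lower. Only 2.83% of the genes tested had a lower log2 difference on D14 and 1.97% on D16. Each of these calls held in all 21 fits that left out a library or a letter and under all 7 other settings.

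EIF3I and EIF3G, the other members of the mobile module, also had their lowest heavy pool values on D16. EIF3I had 16483, 16839 and 17386 normalised counts in heavy pool D16, against 32646, 37674 and 38310 at D0, with no overlap and a log2 difference of -1.10 ± 0.10 (adjusted p = 9.17e-10). On D7 its values of 30088, 33030 and 36021 overlapped those of D0 (-0.13 ± 0.10, adjusted p = 0.239). EIF3I also fell on D1 (-0.50 ± 0.10, adjusted p = 0.000184), D2 (-0.24 ± 0.10, adjusted p = 0.0307) and D14 (-0.63 ± 0.10, adjusted p = 4.16e-06). Its D2 groups overlapped, and that call was lost without heavy pool D0 B, D0 C, D2 A or D2 B (adjusted p 0.102, 0.118, 0.114 and 0.108), without letter B (0.297) and with edgeR (adjusted p = 0.264). EIF3G, an RNA-binding subunit, fell on all 5 days, by 0.49, 0.54, 0.46, 0.40 and 0.91 on the log2 scale on D1, D2, D7, D14 and D16 (SE 0.10, adjusted p from 4.78e-08 to 0.00156). Its heavy pool values were 10057, 9566 and 10269 on D16, against 16792, 19389 and 20215 at D0, and the groups did not overlap on any day. Under total-sum scaling its calls on D2 (-0.16, adjusted p = 0.0822), D7 (-0.17, adjusted p = 0.0772) and D14 (-0.08, adjusted p = 0.398) were lost.

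EIF3D, the cap-binding subunit, had its lowest heavy pool values on D2 and D16. It had 12544, 13632 and 17134 normalised counts on D2 and 15309, 16363 and 13102 on D16, against 29110, 29441 and 32051 at D0. The log2 differences were -1.08 ± 0.13 on D2 (adjusted p = 1.03e-07), -0.64 ± 0.13 on D7 (adjusted p = 0.000126), -0.90 ± 0.13 on D14 (adjusted p = 1.2e-06) and -1.02 ± 0.13 on D16 (adjusted p = 1.83e-07). On D1 it was -0.31 ± 0.13 and missed the threshold (adjusted p = 0.0502); with the letter as a replicate block it passed (adjusted p = 0.0408). All D1 to D16 values lay below all D0 values.

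Among the 6 members of the octameric core, EIF3E and EIF3H were called higher than D0 on D14 and D16. EIF3E, also known as INT6, had 13093, 11895 and 11665 normalised counts in heavy pool D2, against 19502, 21577 and 23519 at D0, a fall of 0.82 ± 0.10 on the log2 scale (adjusted p = 2.82e-07). It then stood at 28159, 30684 and 29175 in heavy pool D14 and 26849, 29841 and 35433 in heavy pool D16, all above the D0 values, and rose by 0.45 ± 0.10 (adjusted p = 0.000439) and 0.51 ± 0.10 (adjusted p = 0.000119). EIF3H, an MPN-domain subunit, had 21038, 22626 and 22677 in heavy pool D14, against 16834, 17359 and 18625 at D0. It fell by 0.30 ± 0.09 on D2 (adjusted p = 0.00868) and rose by 0.33 ± 0.09 on D14 (adjusted p = 0.00349) and by 0.29 ± 0.09 on D16 (adjusted p = 0.00951). The D16 call of EIF3H was lost without heavy pool D16 C (adjusted p = 0.0789), all 3 of its calls were lost without letter B (0.0926, 0.0673 and 0.0613), and its D2 call was lost under total-sum scaling (0.386) and with edgeR (0.106). EIF3E and EIF3H are the members on chromosome 8 and hold the lowest GC contents of the 10, 38.2% and 40.2% in their longest coding transcripts, where the 10 ran up to 60.3% with a median of 50.4%. EIF3F, next at 40.6%, fell in the heavy pool on all 5 days, and EIF3A, at 43.2%, had no rise called with the authors' size factors. Whether base composition had a part in the rises of EIF3E and EIF3H was not tested.

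The other 4 core members fell on 3 to 5 of the 5 days, with no rise called with the authors' size factors. EIF3F, the other MPN-domain subunit, fell on each of the 5 days with no overlap: its log2 differences were -0.38, -0.60, -0.61, -0.50 and -0.57 over the 5 days (SE 0.09, adjusted p from 2.69e-06 to 0.00105). Under total-sum scaling its D16 call was lost (-0.14, adjusted p = 0.0802). EIF3L and EIF3K, which bind each other at one end of the core, fell on 4 days each. EIF3L fell by 0.78, 0.49, 0.39 and 0.65 on D2, D7, D14 and D16 (SE 0.11, adjusted p from 1.51e-06 to 0.00283), and had 8135, 8493 and 9445 normalised counts in heavy pool D2, against 14280, 14720 and 15559 at D0. EIF3K fell by 0.49, 0.36, 0.36 and 0.72 on D1, D2, D14 and D16 (SE 0.10, adjusted p from 5.86e-07 to 0.00246; on D2 0.059 without letter B), and had 7639, 8015 and 7821 in heavy pool D16, against 11495, 13770 and 13509 at D0. Under total-sum scaling EIF3L was lost on D7 (-0.20, adjusted p = 0.0621) and D14 (-0.07, adjusted p = 0.49), and EIF3K on D2 and on D14 (-0.04, adjusted p = 0.688). EIF3A, the scaffold of the core, had 11615, 13205 and 11886 in heavy pool D2 and 10839, 11762 and 9070 in heavy pool D7, against 15227, 15860 and 20048 at D0. It fell by 0.47 ± 0.13 on D2 (adjusted p = 0.00314) and by 0.69 ± 0.13 on D7 (adjusted p = 8.42e-05), and overlapped D0 on D16, with 14345, 18607 and 14808 (-0.10 ± 0.13, adjusted p = 0.51). Its D2 call was lost under total-sum scaling (-0.09, adjusted p = 0.593). Its D14 call (-0.30 ± 0.13, adjusted p = 0.0452) was lost without heavy pool D0 C, D1 A, D2 C, D14 A or D14 C (adjusted p from 0.0505 to 0.267), without letters A or C (0.131 and 0.287), under TMM scaling (adjusted p = 0.0803) and with edgeR (0.201).

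**Figure D3:**
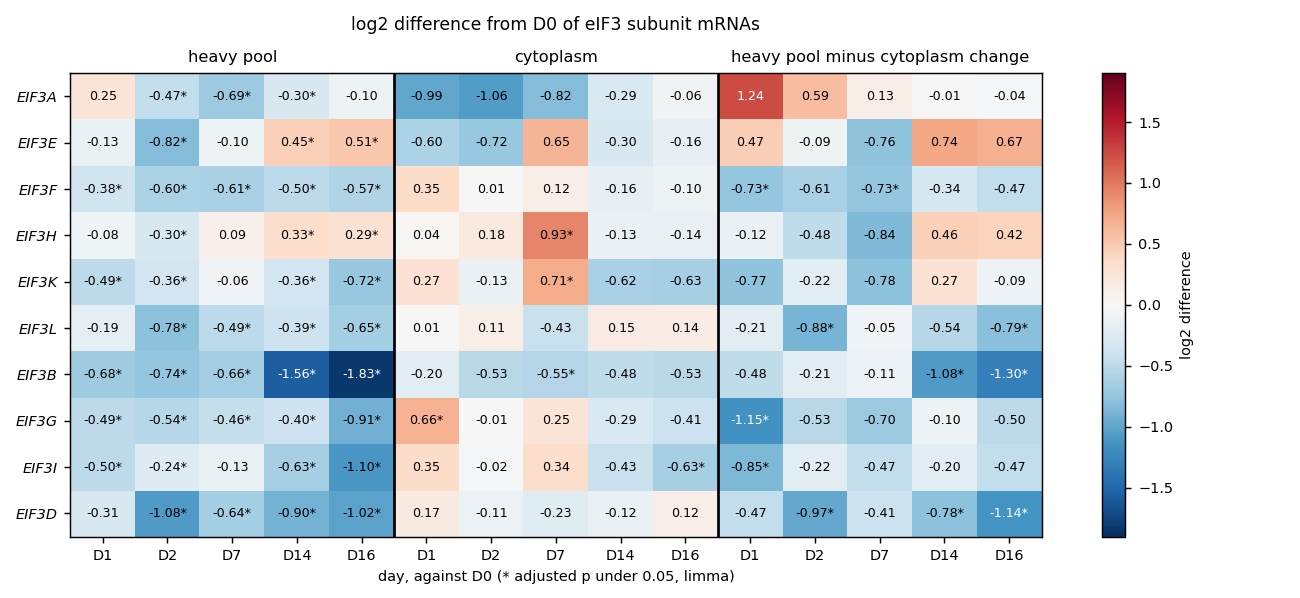
Log2 difference from D0 of each eIF3 subunit mRNA (rows; octameric core, then mobile module, then EIF3D) on each day, in the heavy pool, in the cytoplasm, and as the heavy pool difference minus the cytoplasm difference; asterisks mark an adjusted p under 0.05. In the heavy pool the cells of D2 to D16 are below 0, apart from EIF3E and EIF3H on D14 and D16 and EIF3H on D7, and the cytoplasm block has 5 asterisks.

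In the cytoplasm fewer changes passed the test than in the heavy pool, among the members and among all genes. The members' SE ran from 0.16 to 0.47 there and from 0.09 to 0.13 in the heavy pool, so these counts are not comparable. Members called against D0 numbered 1 on D1 (risen), 0 on D2, 3 on D7 (2 risen, 1 fallen), 0 on D14 and 1 on D16 (fallen). Of the 15889 genes tested, 10.9%, 14.2%, 18.3%, 7.75% and 9.47% rose on D1, D2, D7, D14 and D16, and 7.09%, 10.6%, 15.7%, 5.05% and 7.26% fell. At an unadjusted p under 0.05 there were 2 members on D2 and 3 on D14, the days with 0 calls, and edgeR's quasi-likelihood test called 0 on both. Among all 15889 genes 5763 on D2 and 4295 on D14 had an unadjusted p under 0.05, so these counts say little about eIF3. The F test for any day passed EIF3G, EIF3I and EIF3K, 3 of 10, where 61.5% of all genes passed. The members' median log2 difference was 0.10, -0.07, 0.18, -0.29 and -0.15 on the 5 days, beside -0.01, 0.00, 0.01, -0.02 and -0.01 for all genes. Total-sum scaling moved the share of higher genes among all cytoplasmic calls to 46.1% on D1, 36.2% on D7, 77.5% on D14 and 72.8% on D16, where the authors' factors gave 60.5%, 53.9%, 60.5% and 56.6%. Under it EIF3G was lost on D1 (0.41, adjusted p = 0.0671) and EIF3H on D7 (0.60, adjusted p = 0.111), while EIF3L was called lower on D7 (-0.76, adjusted p = 0.0323) and EIF3K on D14 and D16 (-0.47 and -0.46, adjusted p 0.0398 and 0.0381).

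EIF3G had 25363, 26786 and 21091 normalised counts in cytoplasmic D1, against 16464, 14622 and 15054 at D0. All D1 values lay above all D0 values, a rise of 0.66 ± 0.21 on the log2 scale (adjusted p = 0.0411), on the day on which its heavy pool level had fallen. That call was lost in 11 of 21 fits that left out a library or a letter: without D0 A, B or C (adjusted p 0.0713, 0.132 and 0.112), D1 A or B (0.0948 and 0.16), D2 B (0.0521), D7 C (0.0513) or D16 A (0.0514), and without letters A, B or C (0.0659, 0.262 and 0.184). EIF3K had 27387, 16587 and 19440 in cytoplasmic D7, against 13831, 12011 and 12030 at D0, and EIF3H had 78625, 39505 and 34325, against 27626, 27689 and 20224. Both rose with no overlap, by 0.71 ± 0.23 (adjusted p = 0.0252) and 0.93 ± 0.33 (adjusted p = 0.0392), and in both D7 A was the highest library. Without D7 A the differences were 0.51 (adjusted p = 0.133) for EIF3K and 0.56 (adjusted p = 0.217) for EIF3H. Both were also lost without cytoplasmic D0 B or D0 C (adjusted p 0.076 and 0.0802 for EIF3K, 0.0666 and 0.145 for EIF3H), and EIF3H without D0 A (0.0601). Leaving out a letter ended them too, B or C for EIF3K (0.0625 and 0.151) and A or C for EIF3H (0.173 and 0.151).

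EIF3B fell in cytoplasmic D7, with 14211, 17332 and 19619 normalised counts, against 23637, 23884 and 27142 at D0 (-0.55 ± 0.20, adjusted p = 0.0414). That call was lost without D7 A or B (adjusted p 0.158 and 0.0622), D0 A, B or C (0.0689, 0.0798 and 0.137) or D14 C (0.0501). EIF3I fell in cytoplasmic D16, with 15687, 18225 and 16874, against 27175, 25464 and 25795 at D0 (-0.63 ± 0.18, adjusted p = 0.0263; 0.0913, 0.0672 and 0.0697 without D0 A, B and C, and 0.0939 and 0.0634 without D16 A and C). For both, no library of that day reached a D0 value. Without letters A, B and C the adjusted p was 0.149, 0.0755 and 0.194 for EIF3B on D7 and 0.0818, 0.11 and 0.216 for EIF3I on D16. EIF3A varied widely within its cytoplasmic groups, with 14614, 5884 and 12396 on D1 and 7276, 6498 and 19535 on D2, against 21361, 22962 and 17187 at D0. Its log2 differences of -0.99 ± 0.45 on D1 (adjusted p = 0.133) and -1.06 ± 0.45 on D2 (adjusted p = 0.0956) did not pass. D1 B was the lowest library on D1 and D2 C, the most deeply read library of all, was far above its partners on D2. EIF3D, EIF3E, EIF3F and EIF3L had no cytoplasmic call on any day. EIF3D stayed between -0.23 and 0.17 (SE 0.16), EIF3F between -0.16 and 0.35 (SE 0.17) and EIF3L between -0.43 and 0.15 (SE 0.18), while EIF3E ranged from -0.72 to 0.65 with an SE of 0.47.

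With the letter as a replicate block, more cytoplasmic calls of members were made: 2 on D2 (EIF3A, adjusted p = 0.0417, and EIF3B, 0.0206), 4 on D7 (EIF3L added, 0.0368), 1 on D14 (EIF3K, 0.0341), 3 on D16 (EIF3B, 0.0289, and EIF3K, 0.0278, added) and 8 in the F test for any day. Calls also grew among all genes. Of 15889 genes, 5034, 6820, 3015 and 3748 were called under the block on D2, D7, D14 and D16, and 11644 passed for any day. Under the block the log2 differences themselves stayed as they were, and EIF3B was then called lower on D2, D7 and D16.

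Several cytoplasmic libraries stood apart from their groups in ways that touch low-GC members. In D14 B the log2 deviation from the group mean was -1.21 for EIF3E, -0.90 for EIF3A and -0.60 for EIF3H, and in D16 B it was -1.12, -0.73 and -0.55, while the other 7 members deviated by 0.05 to 0.34 in these libraries, all upward. Across 12385 genes with a coding transcript, the deviation of a library from its group went with GC content at r = 0.80 in D14 B and r = 0.74 in D16 B. Genes are not independent replicates, and these values describe the libraries. EIF3F, with 40.6% GC, deviated by 0.29 and 0.24, unlike the other low-GC members. EIF3E had 37989, 10633 and 36925 in cytoplasmic D14, against 29034, 36587 and 25940 at D0, with a log2 difference of -0.30 ± 0.47 (adjusted p = 0.743). In D7 A, by contrast, r with GC content was 0.02, and the largest deviations were those of EIF3H (0.73) and EIF3E (0.53). In the heavy pool no member deviated by more than 0.28 from its group in any library, and the values of r lay between -0.50 and 0.46. Whether base composition had a part in any cytoplasmic result was not tested.

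**Figure D4:**
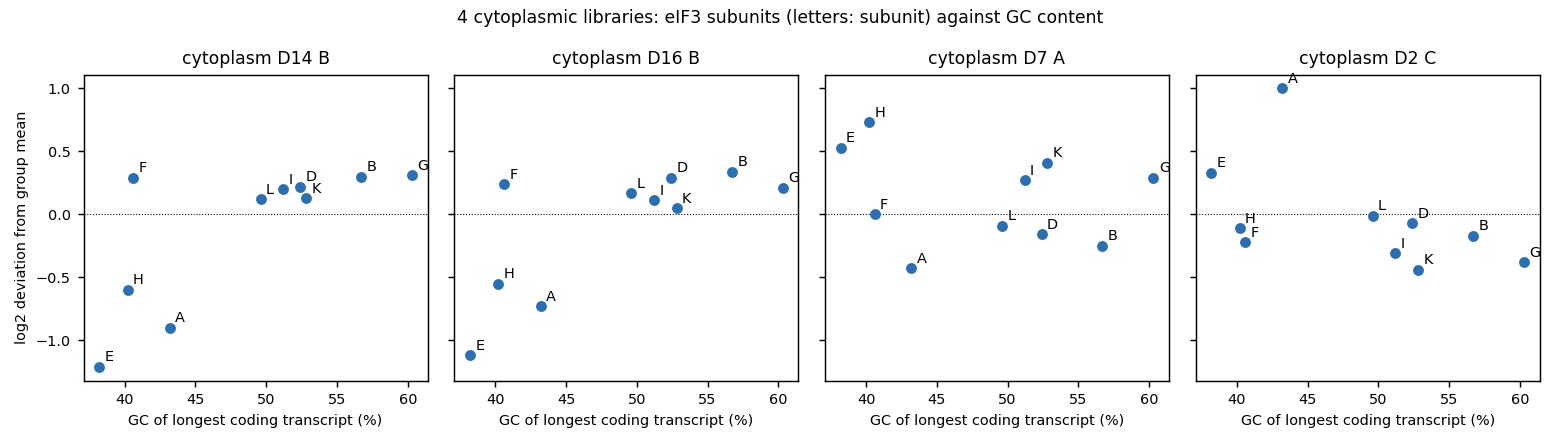
Log2 deviation from the group mean (y axis) of each eIF3 subunit, marked by its letter, against the GC content of its longest coding transcript (x axis, percent) in cytoplasmic D14 B, D16 B, D7 A and D2 C. In D14 B and D16 B subunits E, A and H lie far below 0 and the other 7 slightly above it, and in D2 C subunit A stands at 1.00.

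The change of the heavy pool was then set against that of the cytoplasm on the same day, called polysome association change: the log2 difference from D0 in the heavy pool minus that in the cytoplasm, fitted over all 36 libraries. All calls of members were lower. They numbered 3 on D1, 2 on D2, 1 on D7, 2 on D14 and 3 on D16, of 10 each. Of all 15891 genes, 3.37%, 2.03%, 3.20%, 16.7% and 17.9% were called lower on D1, D2, D7, D14 and D16, and 0.787%, 0.0378%, 0.749%, 11.5% and 11.6% higher. The members' median was -0.48, -0.35, -0.59, -0.15 and -0.47, beside -0.10, -0.10, -0.09, -0.10 and -0.09 for all genes. In the F test for any day 8 of 10 members passed, with EIF3A and EIF3E as the exceptions, where 54.1% of all genes passed.

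On D1 the called members were EIF3G (-1.15 ± 0.24, adjusted p = 0.0118), EIF3I (-0.85 ± 0.20, adjusted p = 0.0186) and EIF3F (-0.73 ± 0.18, adjusted p = 0.0258). For EIF3F the heavy pool to cytoplasm log2 ratio was -0.57, -0.58 and -0.55 on D1, against -0.03, 0.25 and 0.28 at D0, in letters A, B and C. For EIF3G it was -1.08, -0.85 and -0.66 on D1, against 0.03, 0.41 and 0.43 at D0. Without cytoplasmic D1 B none of the 3 was called (adjusted p 0.0585 for EIF3G, 0.0857 for EIF3I and 0.103 for EIF3F). EIF3F and EIF3I were also lost without cytoplasmic D0 B or heavy pool D0 B, D0 C or D1 A, and EIF3F without cytoplasmic D0 C or heavy pool D1 C (adjusted p from 0.0549 to 0.0839). Without letters A, B and C the adjusted p was 0.0537, 0.284 and 0.22 for EIF3I and 0.0726, 0.281 and 0.272 for EIF3F, and without letters B and C 0.281 and 0.22 for EIF3G. Without cytoplasmic D7 A, D14 B and D16 B 7 members were called, with EIF3B, EIF3D and EIF3K also lower (adjusted p 0.0433, 0.0449 and 0.0183) and EIF3A higher (1.24, adjusted p = 0.0245). In that fit 4073 of all 15891 genes were called, 1858 higher and 2215 lower, against 661 with all libraries. The libraries left out are not of D0 or D1, so the D1 differences stayed as they were and only the pooled spread changed. On D7 EIF3F alone was called (-0.73 ± 0.18, adjusted p = 0.0212; adjusted p from 0.0524 to 0.0662 without cytoplasmic D0 B or heavy pool D0 B, D0 C or D7 A, and 0.112, 0.12 and 0.296 without letters A, B and C).

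On D2 the called members were EIF3D (-0.97 ± 0.20, adjusted p = 0.00869) and EIF3L (-0.88 ± 0.21, adjusted p = 0.0204). The log2 ratio of EIF3L was -0.69, -0.86 and -0.58 on D2, against 0.20, 0.10 and 0.21 at D0. EIF3L was lost without cytoplasmic D0 A or D2 B, or heavy pool D0 C, D2 A or D2 B (adjusted p from 0.0586 to 0.0789), and EIF3D and EIF3L without any one of the letters (from 0.0848 to 0.328). On D14 and D16 EIF3B and EIF3D were lower. EIF3B had log2 ratios of 0.33, -0.22 and 0.35 on D14 and 0.18, -0.36 and -0.04 on D16, against 1.19, 1.26 and 1.24 at D0, a change of -1.08 ± 0.22 (adjusted p = 0.00116) and -1.30 ± 0.22 (adjusted p = 0.000147). EIF3D had 0.14, -0.18 and 0.19 on D14 and -0.17, -0.47 and -0.30 on D16, against 0.81, 0.79 and 0.90 at D0, a change of -0.78 ± 0.20 (adjusted p = 0.00612) and -1.14 ± 0.20 (adjusted p = 0.000216). No ratio of either gene on these days reached a D0 ratio. The D14 calls were lost without letter B (adjusted p = 0.0517 for EIF3B and 0.0964 for EIF3D). EIF3L was lower on D16 (-0.79 ± 0.21, adjusted p = 0.0055; 0.0879 without letter C). With the replicate block EIF3L was called on D14 (adjusted p = 0.0272) and EIF3F on D16 (adjusted p = 0.0453).

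Under total-sum scaling the calls of EIF3G on D1, EIF3B on D14 and D16 and EIF3D on D16 remained and the other 7 did not pass, EIF3K was called higher on D14 (0.44, adjusted p = 0.0382), and the median of all genes moved to 0.34, 0.39, 0.52, 0.07 and 0.17 over the 5 days and the share of higher genes among all calls to 50.0%, 77.3%, 88.3%, 78.6% and 74.7%, where the authors' factors gave 18.9%, 1.8%, 19.0%, 40.8% and 39.2%. The highest minus the lowest mean log2 ratio among the 10 was 2.46 on D7 (EIF3B at 1.12 and EIF3H at -1.34), 0.67 on D14 and 0.79 on D16, against 1.73 at D0 (EIF3B at 1.23 and EIF3H at -0.50). Within letters A, B and C it was 1.17, 2.05 and 1.18 on D14 and 1.03, 1.95 and 0.78 on D16, against 1.91, 2.02 and 1.38 at D0. On the last 2 days it was thus narrower than at D0 in letters A and C and close to D0 in letter B, where cytoplasmic D14 B and D16 B stand apart and EIF3E had the highest ratio, 1.53 and 1.26. The difference in spread was not tested.

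**Figure D5:**
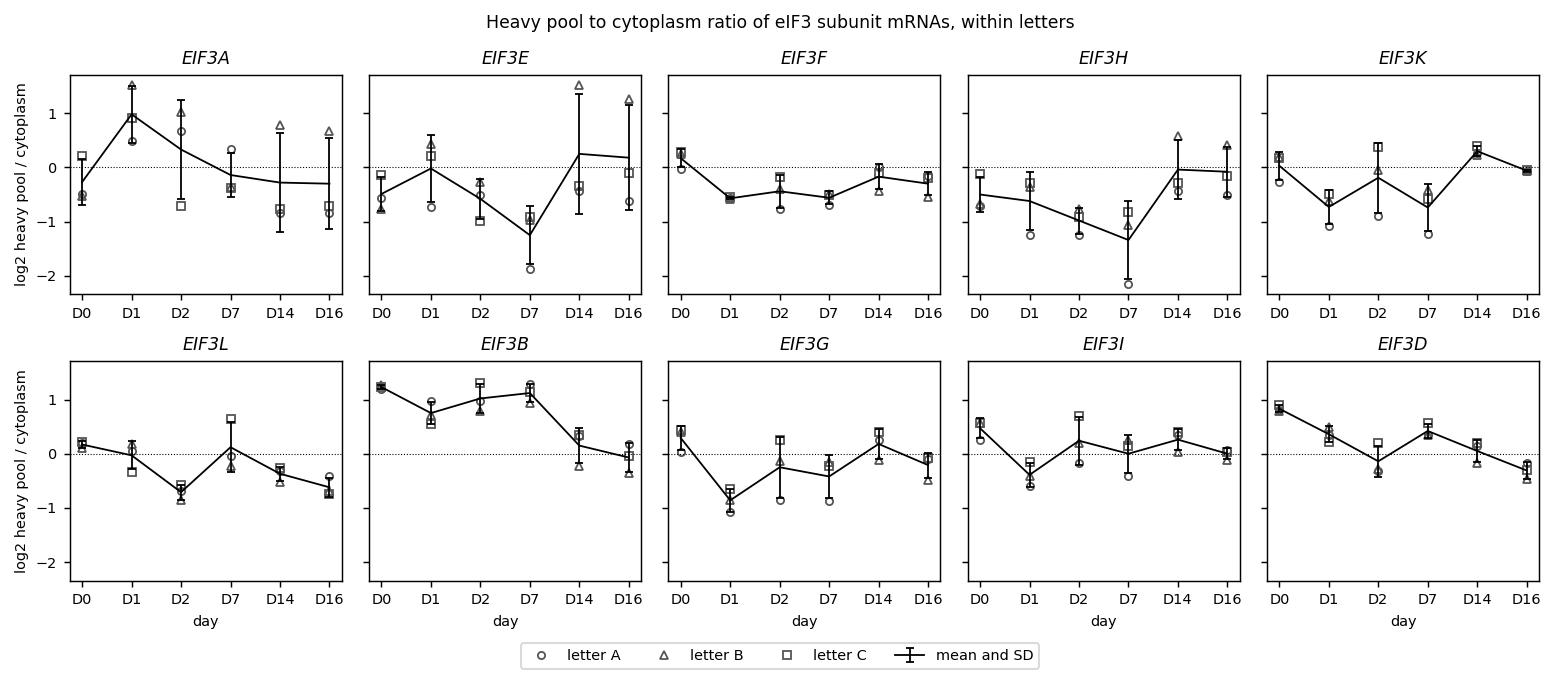
Log2 ratio of heavy pool to cytoplasm (y axis) of each eIF3 subunit mRNA by day, within letters; points are letters A, B and C, and the line joins means with their SD (n = 3). EIF3B averages 0.15 on D14 and -0.07 on D16, against 1.23 at D0, the mean of EIF3D lies below 0 on D2 and D16, and EIF3A and EIF3E have the widest error bars on D14.

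Other genes of the translation apparatus give the setting. The shares of all genes called with the authors' size factors in each comparison are those given above. Of the list of 32 other initiation factors and their regulators, 31 were in the table. In the heavy pool 9, 16, 9, 19 and 20 of the 31 fell on D1, D2, D7, D14 and D16, and 4, 5, 7, 7 and 6 rose, with medians of -0.09, -0.26, -0.13, -0.42 and -0.54. Under total-sum scaling 7, 9, 5, 11 and 13 fell and 7, 13, 13, 9 and 11 rose, so on D2 and D7 more then rose than fell. The same held for all genes, of which 49.3% and 40.5% then rose on D2 and D7 and 19.5% and 22.2% fell. The list's median was then 0.12 on D2 and 0.16 on D7, beside 0.35 and 0.18 for all genes. With the authors' factors all genes had medians of -0.03 and -0.11 on these days. EIF4G1, the scaffold of the cap-binding complex, was lower, with log2 differences of -1.76 ± 0.12 on D2 (adjusted p = 3.31e-11) and -2.16 ± 0.12 on D16 (adjusted p = 9.23e-13). EIF4A2, an RNA helicase, rose on D14 (1.20 ± 0.09, adjusted p = 1.14e-10). In the cytoplasm 2, 4, 4, 5 and 8 of the 31 fell and 1, 2, 2, 2 and 2 rose, among them EIF4A2, which rose by 1.22 ± 0.19 on D16 (adjusted p = 0.000389). In polysome association 1, 2, 1, 6 and 8 were lower and 0, 0, 0, 4 and 3 higher, with DENR, a factor of ribosome recycling and reinitiation, higher on D16 (1.72 ± 0.39, adjusted p = 0.00156). Under total-sum scaling 2, 4, 5, 3 and 3 fell and 1, 0, 0, 1 and 2 rose in the cytoplasm. In polysome association 0, 0, 0, 4 and 5 were then lower and 0, 1, 6, 6 and 5 higher, so on D2, D7 and D14 more were higher than lower. The same held for all genes, of which 0.642%, 8.83% and 15.6% were then higher on D2, D7 and D14 and 0.189%, 1.17% and 4.24% lower. At D0 10 of the 31 were higher in the heavy pool than in the cytoplasm and 5 lower.

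The 32 small ribosomal subunit protein genes code for proteins of the subunit that eIF3 binds. In the heavy pool 20, 7, 10, 1 and 1 fell on D1, D2, D7, D14 and D16, and 0, 7, 2, 29 and 24 rose, with medians of -0.30, 0.05, -0.17, 0.82 and 0.60. Under total-sum scaling 9, 3, 3, 0 and 0 fell and 2, 22, 13, 30 and 30 rose, so on D2 and D7 more rose than fell. Of all genes, 49.3% and 40.5% then rose on D2 and D7 and 19.5% and 22.2% fell. RPS12 and RPS20 rose most on D14, by 1.73 ± 0.10 (adjusted p = 1.34e-12) and 1.64 ± 0.09 (adjusted p = 3.41e-13). In the cytoplasm 24 of 32 rose on D7, 1 rose on D2, 1 fell on D16, and 0 passed on D1 and D14 (6 and 0 at an unadjusted p under 0.05, and 0 on both with edgeR). Among all 15889 genes 5308 on D1 and 4295 on D14 had an unadjusted p under 0.05. Without cytoplasmic D7 A, D14 B and D16 B, 1 of 32 rose on D7, with a median of 0.62 instead of 1.08, and 5 rose on D1; under total-sum scaling 24 rose on D7, 1 on D2 and 3 on D1, and 0 fell on D16. In polysome association 2, 1, 14, 0 and 0 were lower and 0, 0, 0, 11 and 5 higher; without those 3 libraries 15, 3, 2, 0 and 0 were lower and 0, 0, 0, 21 and 9 higher, and under total-sum scaling 1, 1, 8, 0 and 0 lower and 0, 0, 0, 30 and 27 higher. At D0 28 of 32 were lower in the heavy pool than in the cytoplasm, with a median of -1.05, beside 0.17 for the eIF3 members. A last list took 5 genes of the table by an elongation factor symbol: EEF1A1, EEF1B2, EEF1D, EEF1E1 and EEF2. Of these, 4, 3, 3, 2 and 2 fell in the heavy pool on D1, D2, D7, D14 and D16 and 0, 0, 1, 2 and 1 rose. EEF1A1, which brings aminoacyl-tRNA to the ribosome, changed by -1.03 ± 0.10 on D2 (adjusted p = 7.19e-09). The riser on D7 was EEF1E1 (0.41 ± 0.18, adjusted p = 0.0465), and those on D14 were EEF1E1 (0.60 ± 0.18, adjusted p = 0.00469) and EEF1B2 (0.50 ± 0.08, adjusted p = 1.93e-05). Under total-sum scaling 2, 2, 3, 0 and 1 fell and 0, 1, 2, 3 and 3 rose. In the cytoplasm only EEF1B2 passed, on D7 (1.19 ± 0.31, adjusted p = 0.00841), and 0 passed on D1, D2, D14 and D16, also at an unadjusted p under 0.05 and with edgeR; under total-sum scaling 1 fell on D1 and 1 on D2. In polysome association 2, 1, 2, 0 and 1 of the 5 were lower (0, 0, 1, 0 and 0 under total-sum scaling, with 2 higher on D14 and 1 on D16), and at D0 2 were lower in the heavy pool than in the cytoplasm.

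Likeness to the members' median course was measured as the root mean square difference from it over 10 log2 changes from D0 (5 days in 2 fractions). Among 11319 other protein-coding genes averaging 100 or more normalised counts, the nearest were DAP3 (0.13), ANKRD54 (0.13), ZDHHC14 (0.14), ZSCAN5A (0.15) and LZTS2 (0.15). Of the members, EIF3F lay nearest (0.12), and 0 of the other genes were nearer (EIF3F itself enters the median), while EIF3A (0.63), EIF3B (0.62) and EIF3E (0.59) lay far out, with 45.5%, 44.4% and 39.6% of the other genes nearer to the median course than they were. ANKRD54 overlaps EIF3L on the opposite strand. The kit marks strand, but how the counting treated it is not stated in the sources used here, so reads of these genes may not be fully separated. The same limit holds for EIF3B with SNX8, EIF3H with UTP23, EIF3A with NANOS1, EIF3G with P2RY11 and EIF3I with TMEM234. The processed pseudogenes EIF3FP3 and EIF3FP1 were listed at 21.1% to 24.9% and 1.9% to 3.7% of the value of EIF3F in each library, and EIF3LP2 at 4.0% to 22.4% of that of EIF3L, so the counts of EIF3F and EIF3L are uncertain to the extent that reads were shared between these copies.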

How the data were processed

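The authors deposited a signal: each gene's reads after division by a size factor of its library. Per the submitters' processing notes, reads passed quality control (FastQC 0.11.9) and trimming (cutadapt 3.2), were mapped to GRCh38 by STAR 2.7.9a and counted by featureCounts (Subread 2.0.1), and DESeq2 1.30.1 was used; annotation and strand setting are not stated in the sources used here. The table has 54 value columns, 36 of them with a sample here; the other 18 were left out. All listed values exceed 1, so genes silent in any library are absent. Dividing by the value of 1 read gave whole reads for 100% of values within 0.01; depths are sums of these reads.

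Values were transformed to log2(value + 1), and a gene entered a fraction's fit if 3 or more of its libraries reached 10. limma 3.58.1 (R 4.3.3; group means, eBayes with trend) was fitted per fraction and, for polysome association, to all 36 libraries. Tests were two-sided and adjusted by Benjamini-Hochberg over all genes tested; a call is an adjusted p under 0.05. A fold change is on the log2(value + 1) scale. Alternatives used TMM and total-sum scaling, edgeR 4.0.16 on the recovered reads, a pseudocount of 10, no filter, a replicate block, and left-out libraries. The steps were tested on simulated data.

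Letters pair samples because the labels call them batches. Same-letter libraries of different days deviated from their group means with an average correlation of 0.19 for the cytoplasm, where 27 of 45 pairs exceeded 0.1, and 0.07 for the heavy pool (20 of 45); for the fractions of 1 day it was 0.00 (5 of 18). The closest libraries (r = 0.9947) had equal reads in 144 of 15891 genes, and none was counted as a duplicate.

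All 10 members are named in every comparison. Of the other lists up to 4 called genes per comparison could be named by size, and 5 genes by likeness. The members and lists were chosen with earlier results of these data known. Gene names came from GENCODE 29.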

Additional observations from a re-analysis of the deposited data

Results flagged for a closer look

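Members whose change from D0 differed between the heavy pool and the cytoplasm by the test of that difference are given because the same contrast gave different values in the 2 fractions. They are listed as heavy pool change minus cytoplasm change, with the heavy pool and then the cytoplasmic log2 difference. On D1 these were EIF3G at -1.15 (-0.49 and 0.66), EIF3I at -0.85 (-0.50 and 0.35) and EIF3F at -0.73 (-0.38 and 0.35). On D2 they were EIF3D at -0.97 (-1.08 and -0.11) and EIF3L at -0.88 (-0.78 and 0.11). On D7 EIF3F stood at -0.73 (-0.61 and 0.12). On D14 they were EIF3B at -1.08 (-1.56 and -0.48) and EIF3D at -0.78 (-0.90 and -0.12). On D16 they were EIF3B at -1.30 (-1.83 and -0.53), EIF3D at -1.14 (-1.02 and 0.12) and EIF3L at -0.79 (-0.65 and 0.14). Under total-sum scaling only EIF3G on D1, EIF3B on D14 and D16 and EIF3D on D16 stayed called. Only EIF3B and EIF3D on D16 held in all 39 fits that left out a library or a letter.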

How the results depend on the processing

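Counts of members called are given as the value under the alternative and then the reported value. Total-sum scaling gave 5 against 10 (heavy pool D2), 6 against 10 (heavy pool D14), 0 against 1 (cytoplasm D1), 1 against 0 (cytoplasm D14), 2 against 1 (cytoplasm D16), and in polysome association 1 against 3 (D1), 0 against 2 (D2) and 0 against 1 (D7). In the heavy pool members below 0 then numbered 6, 7, 6, 7 and 7 over the 5 days, against 9, 10, 9, 8 and 8. Of the values that turned sign, 6 were called with one of the scalings, and went to 0.09 (EIF3H), 0.14 (EIF3I) and 0.03 (EIF3K) on D2, 0.23 (EIF3K, D7, then called), 0.02 (EIF3A, D14) and 0.33 (EIF3A, D16, then called). The replicate block gave 2 against 0 (cytoplasm D2), 1 against 0 (D14), 3 against 1 (D16) and 8 against 3 (any day); apart from the calls given above it changed no other call. Fits of only the 2 days compared gave 2 against 1 (cytoplasm D1), 1 against 0 (D2), 1 against 0 (D14), 2 against 1 (D16), 6 against 3 (association D1 and D16) and 6 against 3 (heavy pool against cytoplasm at D0). Of all genes, these fits called 5494 of 15799 (cytoplasm D1), 4478 of 15812 (D2), 2633 of 15795 (D14) and 3521 of 15799 (D16). They called 3800 and 5696 of 15833 (association D1 and D16) and 10218 of 15484 (heavy pool against cytoplasm at D0). Without cytoplasmic D7 A, D14 B and D16 B the counts were 2 against 1 (cytoplasm D1), 3 against 0 (D2), 0 against 3 (D7), 2 against 0 (D14), 2 against 1 (D16), 7 against 3 (any day), 7 against 3 (association D1) and 5 against 3 (heavy pool against cytoplasm at D0). Of all 15887 genes then tested in the cytoplasm, 5352, 5889, 4789, 3086 and 3475 were called over the 5 days and 11107 for any day. Of 15891 genes, 4073 were called in association on D1 and 8950 between the fractions at D0. TMM scaling, edgeR, a pseudocount of 10 and no filter moved none of the counts of members by over 1.5 times. The cause of these moves was not tested.

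Leaving out 1 library or letter gave, over D1, D2, D7, D14 and D16, ranges of 0 to 1, 0 to 1, 0 to 3, 0 to 1 and 0 to 2 members in the cytoplasm, 5 to 8, 7 to 10, 6 to 6, 9 to 10 and 8 to 9 in the heavy pool, and 0 to 4, 0 to 3, 0 to 3, 0 to 3 and 2 to 6 in polysome association. For any day they were 1 to 7 in the cytoplasm, 10 to 10 in the heavy pool and 3 to 10 in association, and 2 to 3 at D0 between the fractions. Where a group is left with 2 libraries, the spread is pooled over the other groups. For all genes, association calls on D1 numbered 434 under TMM scaling, 403 with edgeR, 44 under total-sum scaling, 1108 with the block, 3800 with only the 2 days and 4073 without the 3 libraries, against 661, and on D2 132 and 1536 under total-sum scaling and without the 3 libraries, against 328. On D7 they numbered 1589 under total-sum scaling and 964 with the block, against 627, and cytoplasmic D1 calls 5494 with only the 2 days and 5352 without the 3 libraries, against 2850. Cytoplasmic D14 calls without them were 3086, against 2035.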
